A study of Homo sapiens with 14 samples.

Results

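The 45 genes described here encode proteins of G2 and mitosis, the phases in which a cell that has copied its genome prepares to divide and divides. They were taken by gene symbol from the deposited count table, with no measured value in the rule. The set was, however, chosen with earlier results of these data known. All 45 symbols had a row among the 58780 genes of the table, and all 45 passed edgeR's filter on low counts, as did 21910 genes in all. By role, 8 belong to the cyclin and kinase core, 5 are other mitotic kinases, and 8 act in the spindle checkpoint and the exit from mitosis. A further 9 act at centromeres or in chromosome structure, 6 are kinesin motors, 8 act in spindle assembly or cytokinesis, and 1, FOXM1, is a transcription factor.

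Nascent transcription was measured by PRO-seq (precision run-on sequencing), in which RNA polymerases engaged on DNA add labelled nucleotides to the RNA they are making, and that RNA is sequenced. The cells were A549, a single established line from a human lung adenocarcinoma, and each of the 7 groups had 2 libraries. GSK591 is an inhibitor of PRMT5, which makes most symmetric dimethylarginine in cells, MS023 inhibits the type I arginine methyltransferases, and dexamethasone (Dex) is a synthetic glucocorticoid. The groups were untreated cells labelled 15 min, 1 µM GSK591 for 15 min, 1 µM MS023 for 15 min, either inhibitor with 100 nM Dex for 15 min, and either inhibitor for 3 h, all in 0.01% DMSO. The 3 h groups were set against the untreated cells labelled 15 min and against the same inhibitor at 15 min, and cells given Dex alone and untreated cells at 3 h were not analysed here. Nothing in the labels says that the 2 libraries of a group came from separate cultures, so p-values measure only the spread between these libraries, which may be technical.

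Entry into mitosis is driven by CDK1 bound to cyclin B. The kinase WEE1 holds that complex back by phosphorylating CDK1, and the CDC25 phosphatases remove the phosphate. Transcription of the G2 and mitosis genes rises late in the cell cycle. Their promoters are known for a short element called the cell cycle genes homology region (CHR), which the LIN54 subunit of the MuvB complex contacts, and for CCAAT boxes, which the factor NF-Y binds. MuvB works with B-MYB (MYBL2) and FOXM1 in dividing cells and, as part of the DREAM complex, holds the same genes down in resting cells. In lung adenocarcinoma, as in other tumours, high expression of this set is known as a mark of proliferation.

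Total counts per library ranged from 5768312 to 9606938, and mitochondrial transcripts took 39.8% to 58.0% of them. A member gene had between 18 and 1525 counts in a library, with a median of 169.5 over members and libraries. Of the 45 genes, 26 share no exon sequence with another annotated gene, 16 share some with a gene on the opposite strand and 4 with a gene on the same strand, 1 gene being in both counts. The strand setting of the counting is not given in the sources used here, so counts of the overlapping genes are uncertain. The 6 epithelial markers, EPCAM, CDH1 and 4 keratin genes, summed to between 819 and 1101 counts-per-million (CPM), nearly all of it from KRT7, KRT8 and KRT18, while EPCAM held 1.30 to 4.09 CPM and CDH1 1.38 to 3.46 CPM. Fibroblast markers summed to 6.12 to 9.46 CPM, of which COL1A1 made up most, and endothelial markers to 0.236 to 1.84 CPM. Leukocyte markers summed to 2.77 to 4.53 CPM, of which CD14 made up most at 2.36 to 3.88 CPM, while CD3E was at 0 in every library. The 4 alveolar markers summed to 29.7 to 41.4 CPM: ABCA3 held 13.8 to 24.8 CPM, SFTPB 12.3 to 17.3 and SFTPC 1.60 to 4.29, and the lineage factor NKX2-1 did not exceed 0.459 CPM.

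In untreated cells, the genes spanned a wide range of levels once CPM were divided by exon length. The kinase gene AURKB, the phosphatase gene CDC25B, the anaphase activator CDC20 and the ubiquitin-conjugating enzyme gene UBE2C led the set. Their means were 34.5, 31.1, 26.9 and 25.3 CPM per kb of exon. The centromere histone gene CENPA followed at 20.7 and cyclin B2 (CCNB2) at 17.7 CPM per kb. At the low end stood CENPE, a kinetochore motor, at 0.483, SGO1, which protects centromeric cohesion, at 0.936, and NCAPG, a condensin subunit, at 1.203 CPM per kb. These levels were not adjusted for gene span, with which CPM fell over protein-coding genes at a given exon length. AURKB, CDC25B, CDC20 and UBE2C span 4249 to 19350 bp, and CENPE, SGO1 and NCAPG 25700 to 92604 bp. The part of gene span in this order was not tested. The median of the 45 genes was 4.88 CPM per kb, beside 2.66 for all protein-coding genes tested, and 30 of the 45 lay above that value. CDK1 itself, at 2.32 CPM per kb, lay below it, while its partner cyclins CCNB1 (9.56) and CCNA2 (6.89) lay above. Neighbours in this order were close: PLK1 and CCNB1 (9.61 and 9.56), or AURKA, NCAPD2 and FOXM1 (7.43, 7.40 and 7.39), differed by less than the spread between the untreated libraries of at least 1 of them.

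**Figure D1:**
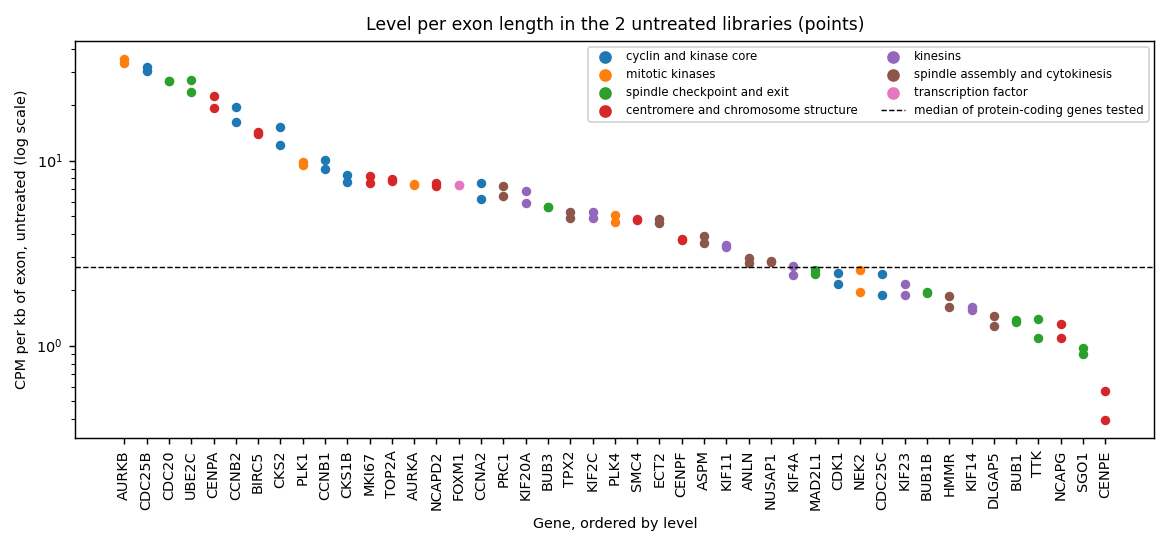
CPM per kb of exon (log axis) of the 45 genes in each of the 2 untreated libraries, ordered by mean level and coloured by role. AURKB stands highest at 34.5 and CENPE lowest at 0.483, and the dashed line marks the median of protein-coding genes tested at 2.66.

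Across all 14 libraries the genes moved little. The ratio of the highest to the lowest library was between 1.25 and 2.43 for each gene, with a median of 1.51, and 41 of 45 stayed under 2-fold. The same median over protein-coding genes tested was 1.72. The 2 sets were not matched for level (untreated medians of 4.88 and 2.66 CPM per kb), so these ratios do not show that the 45 genes were steadier. Summed over the 45 genes, the signal was 1302 ± 2.90 CPM in untreated cells, 1294 ± 71.7 with GSK591 and 1274 ± 8.81 with MS023 for 15 min (SD, n = 2 each). It was 1253 ± 24.3 CPM with GSK591 and Dex, 1197 ± 9.73 with MS023 and Dex, 1307 ± 55.8 after 3 h of GSK591 and 1343 ± 39.2 after 3 h of MS023. The lowest of these group sums, that of MS023 with Dex, was 92.0% of the untreated sum. In these bulk libraries, fewer cells in G2 or mitosis and less transcription per cell cannot be told apart.

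Of the 45 genes, 8 were called in at least 1 of 14 comparisons by edgeR's quasi-likelihood test at a Benjamini-Hochberg adjusted p under 0.05 over all genes tested, and 37 were called in none. There were 16 calls in all, 13 lower and 3 higher, from 45 genes in each of 14 comparisons. Over all genes tested, 4.76% of the tests in these comparisons were called, 2.93% higher and 1.83% lower. In the comparisons with a member call, 2.22% to 6.67% of the members were called. That was below the share of all genes in each, except for Dex added to GSK591 (4.44%, beside 3.70%). Some genes were called in several comparisons that share libraries, so the split by direction does not count separate genes. In each of the 16 calls the libraries of the groups compared did not overlap, and the share of all called genes without overlap was not counted. Of the 16 calls, 1 (CDC25B when Dex was added to MS023) held in every fit that left out 1 library, and all kept their direction. The genes were CDC25B, PLK1 and NCAPD2 among the Dex comparisons, and PLK1, BUB3, AURKB, BIRC5, CENPA and TOP2A among the 3 h comparisons. No gene of the set changed by as much as 1.5-fold in a call: the largest fall, of BUB3, was 31.8%, and the largest rise, of CENPA, was 41.7%.

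**Figure D2:**
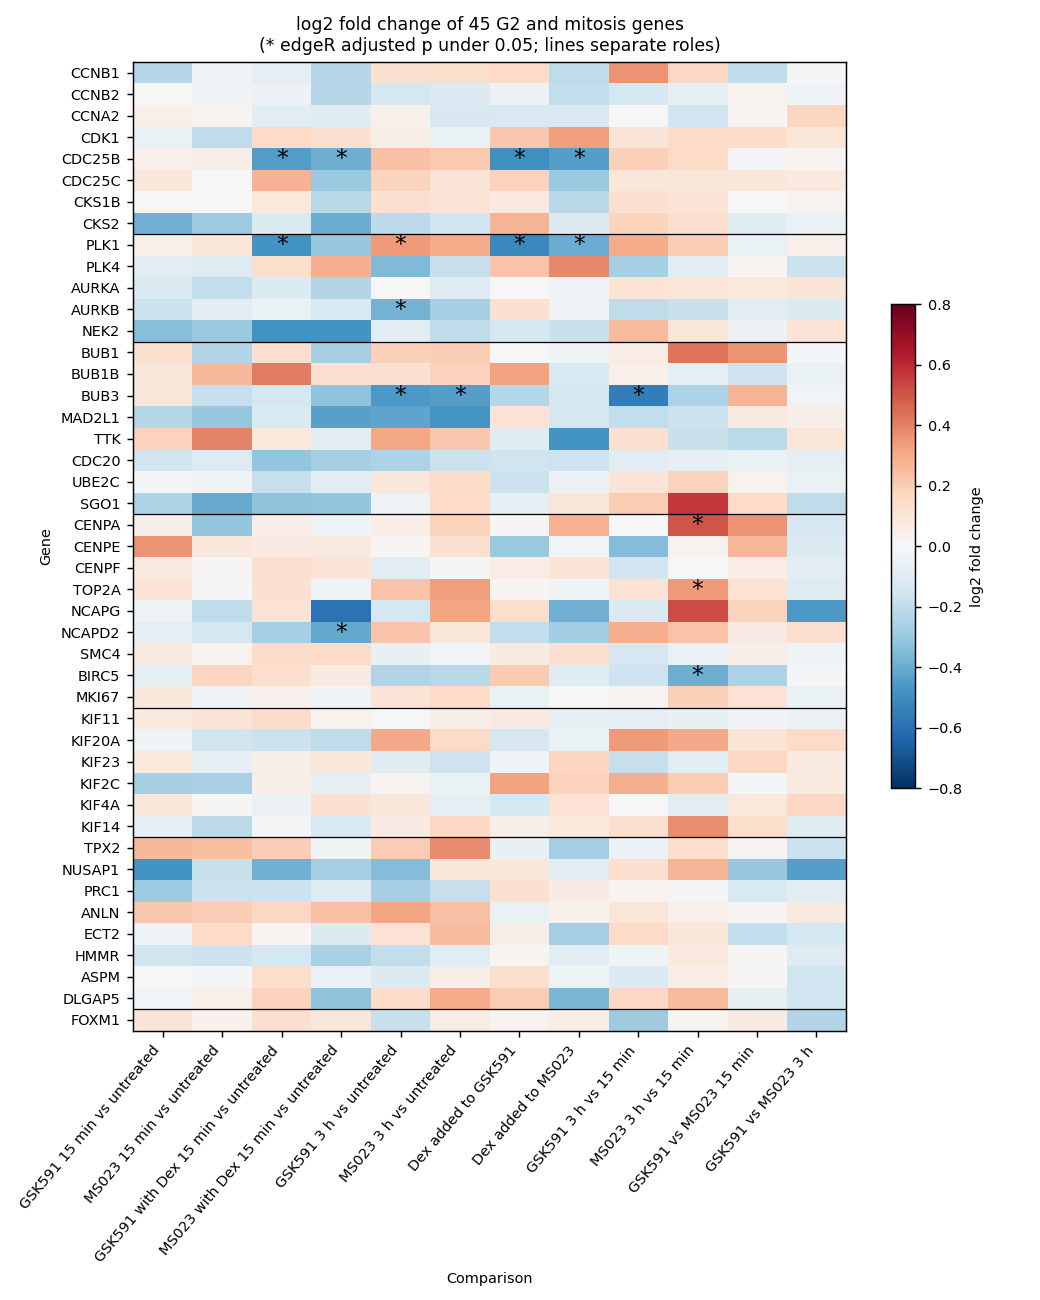
Log2 fold change (edgeR) of each of the 45 genes in 12 comparisons, with genes in order of role and an asterisk where the adjusted p was under 0.05. Blue cells are lower and red cells higher in the first-named group; asterisks stand at CDC25B, PLK1, AURKB, BUB3, CENPA, TOP2A, NCAPD2 and BIRC5.

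The first question was whether 15 min of either inhibitor moved these genes. None was called with GSK591, where 0.306% of all genes tested were called, and none with MS023, where 0.183% were. At an unadjusted p under 0.05, 1 member stood out in each (edgeR), against 6.85% and 8.08% of all genes. The median member log2 fold change was 0.00 with GSK591 and -0.03 with MS023, beside 0.02 and 0.00 over all genes. DESeq2 called none either. The value farthest from 0 with GSK591 was -0.48 for NUSAP1, a spindle protein. With MS023 the value farthest from 0 was -0.404 for SGO1, and the largest above 0 was 0.396 for TTK, a kinase of the spindle checkpoint. The edgeR 95% confidence intervals of NUSAP1 and TTK were -0.97 to 0.00 and -0.08 to 0.87. The precision was enough to bound the changes: the 95% interval lay inside 2-fold in either direction for 45 of 45 genes with GSK591 and for 44 of 45 with MS023, and inside 1.5-fold for 37 and 33.

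The second question was what Dex added to each inhibitor. The 2 members lower when Dex was added were the same beside GSK591 and beside MS023: CDC25B and PLK1. With Dex, the scaled CDC25B count fell by 28.7% beside GSK591 and by 26.2% beside MS023, and that of PLK1 by 30.2% and 24.1%. A gene count does not separate polymerases near the start site from those farther along the gene. The 2 comparisons share no library. CDC25B is the phosphatase that first activates CDK1 with cyclin B. PLK1 is the polo-like kinase that promotes this step and later acts at centrosomes, kinetochores and the site of cytokinesis. The 2 calls were 4.44% of the members, beside 3.70% of all genes called when Dex was added to GSK591 and 8.97% when it was added to MS023.

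CDC25B (ENSG00000101224.17, chromosome 20, 3786772 to 3806121, plus strand, GRCh38, 17 exon blocks, no exon shared with another gene) had the highest counts of the set. It stood at 138 and 131 CPM in untreated libraries, 139 and 137 with GSK591, and at 137 and 141 with MS023. With Dex it stood at 104 and 93.3 CPM beside GSK591 and 103 and 102 beside MS023, and after 3 h at 161 and 154 with GSK591, and at 159.5 and 150.3 with MS023. All 4 libraries given Dex lay below the other 10, and the 4 libraries taken at 3 h lay above the rest. LIN37 and CDKN1B, outside the set, had the same order. How many of all genes tested had this order, or the orders of libraries given below for other genes, was not counted. The log2 fold change for adding Dex was -0.49 ± 0.09 (SE) beside GSK591 (edgeR adjusted p 0.001) and -0.44 ± 0.09 beside MS023 (adjusted p 0.0012). The second call held in all 4 fits that left out 1 library (-0.46 to -0.41). The first was lost without replicate 2 of GSK591 with Dex (-0.40, edgeR adjusted p 0.059).

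PLK1 (ENSG00000166851.14, chromosome 16, 23677656 to 23690367, plus strand, 9 exon blocks) stood at 44.95 and 46.5 CPM in untreated libraries, 45.8 and 48.4 with GSK591, and at 50.1 and 47.6 with MS023. With Dex it stood at 35.1 and 30.6 CPM beside GSK591 and 37.9 and 36.4 beside MS023. After 3 h it stood at 60.2 and 55.3 CPM with GSK591, and at 58.2 and 53.9 with MS023. As for CDC25B, the 4 libraries with Dex were the lowest and the 4 libraries at 3 h the highest, with no overlap between the 3 sets. Adding Dex gave -0.52 ± 0.11 (SE, log2) beside GSK591 (edgeR adjusted p 0.0033) and -0.40 ± 0.11 beside MS023 (adjusted p 0.012). The call beside GSK591 was lost without replicate 2 of GSK591 (-0.48) and without replicate 2 of GSK591 with Dex (-0.41). The call beside MS023 was lost without MS023 replicate 1 (-0.36), without either replicate of MS023 with Dex (-0.42 and -0.36), and with DESeq2, whose adjusted p was 0.05. Some PLK1 exon sequence overlaps ERN2 on the opposite strand, which held 16.5 to 24.8 CPM over the libraries. ERN2 gave -0.34 ± 0.14 and -0.36 ± 0.13 when Dex was added and was not called (edgeR adjusted p 0.18 and 0.081), and its part in the PLK1 values was not tested.

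The difference between the 2 Dex effects was tested directly, and no member was called by edgeR or DESeq2 (edgeR called 1.15% of all genes tested; 1 member had an unadjusted p under 0.05). For CDC25B the effect beside GSK591 less that beside MS023 was -0.05 ± 0.13 with a 95% interval of -0.32 to 0.22, and for PLK1 -0.12 ± 0.15 with an interval of -0.43 to 0.19 (log2, edgeR). These intervals bound how far the inhibitors could differ and do not show that they act alike. Over the 45 genes, the Dex effects had the same sign in 22 and correlated at r = 0.34, beside 0.29 over all genes tested, as a description of genes that share libraries within each comparison. The median member change on adding Dex was 0.02 beside GSK591 and -0.08 beside MS023, beside 0.00 and -0.02 for all genes.

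Against untreated cells, the Dex groups gave 2 calls each, 4.44% of the members, beside 5.85% of all genes for GSK591 with Dex and 7.66% for MS023 with Dex. These 2 comparisons share the untreated libraries. CDC25B was called lower in both, at -0.45 ± 0.09 and -0.39 ± 0.09 (SE, log2; edgeR adjusted p 0.0019 and 0.0046). PLK1 was called lower with GSK591 and Dex (-0.48 ± 0.11, edgeR adjusted p 0.005), and with MS023 and Dex its value was -0.30 ± 0.11 (adjusted p 0.074). Without untreated replicate 1 both CDC25B calls were lost (-0.41 and -0.36). The CDC25B call for GSK591 with Dex was also lost without replicate 2 of that group (-0.37), and the one for MS023 with Dex without either replicate of that group (-0.39 in both). The PLK1 call was lost without untreated replicate 2 (-0.45) or without replicate 2 of GSK591 with Dex (-0.37).

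NCAPD2 (ENSG00000010292.12, chromosome 12, 6493356 to 6531955, plus strand), which encodes a regulatory subunit of condensin I, was the second call for MS023 with Dex. It stood at 48.9 and 47.1 CPM untreated, 46.2 and 41.0 with MS023, 36.8 and 35.4 with MS023 and Dex and 38.8 and 41.3 with GSK591 and Dex. Its remaining libraries held 45.2 and 46.5 CPM with GSK591 for 15 min, 60.4 and 51.9 after 3 h of GSK591 and 46.9 and 55.8 after 3 h of MS023. Both MS023 and Dex libraries lay below all others. It fell by 0.41 ± 0.11 on the log2 scale against untreated cells (edgeR adjusted p 0.013), and the call was lost in each of the 4 fits without 1 library (-0.44 to -0.38). Adding Dex to MS023 gave -0.28 ± 0.11 (adjusted p 0.13), and GSK591 with Dex against untreated gave -0.26 ± 0.11 (adjusted p 0.18). The overlapping gene on the opposite strand, MRPL51, gave 0.11 ± 0.14 in the comparison that called NCAPD2.

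**Figure D3:**
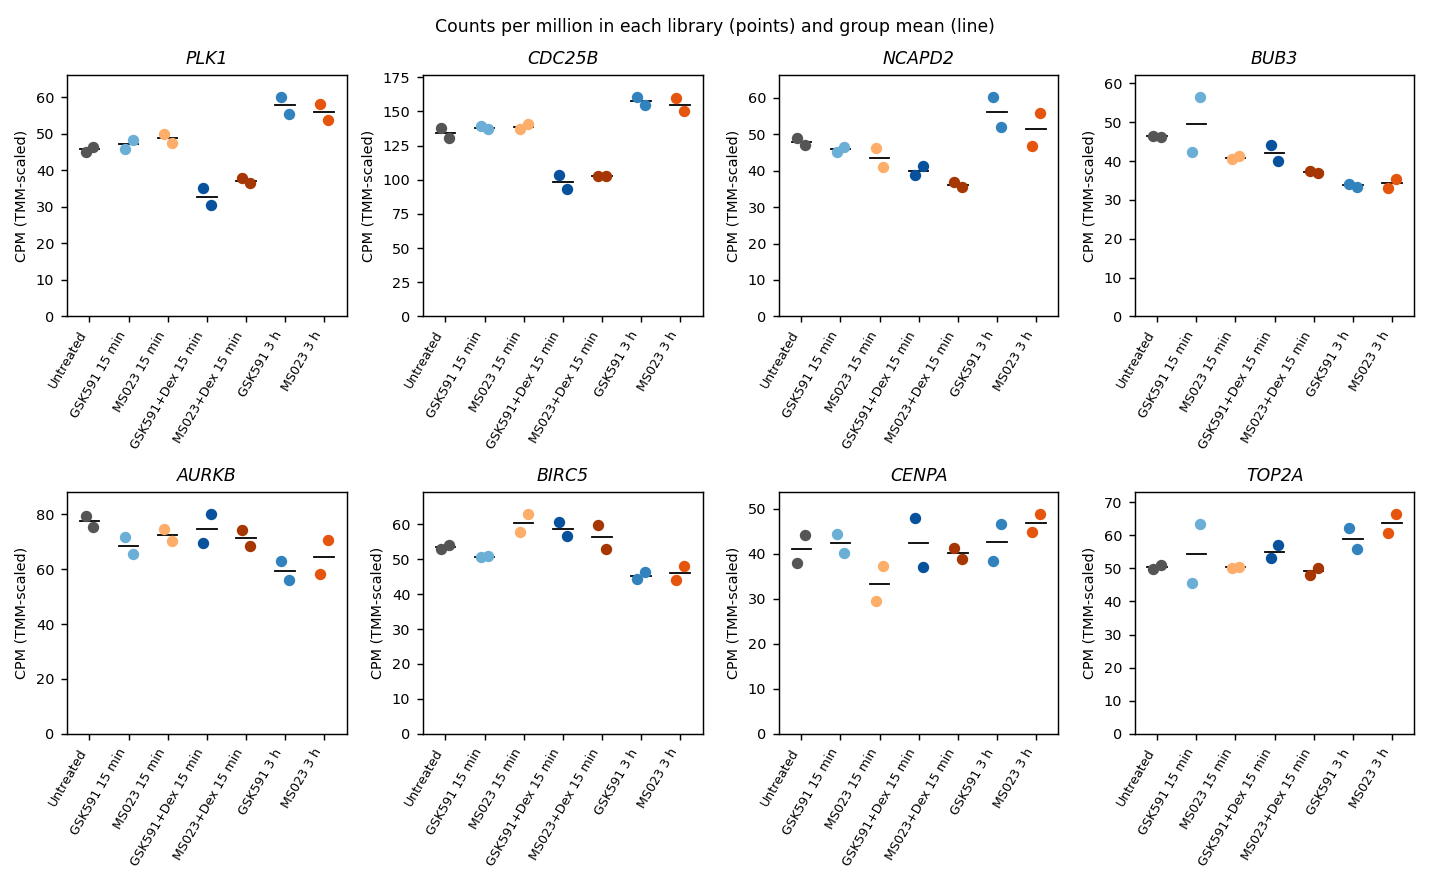
CPM in each library (points) and group mean (line) of the 8 genes called in at least 1 comparison. CDC25B and PLK1 are lowest in the 4 libraries given Dex and highest in the 4 libraries taken at 3 h, and BUB3 is lowest in the 4 libraries taken at 3 h.

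The mitochondrial share of counts differed between the same groups. It was 48.6% and 46.9% with GSK591 and 48.2% and 58.0% with GSK591 and Dex, and 44.5% and 39.8% with MS023 and 49.6% and 52.9% with MS023 and Dex. With library size alone as scaling, which follows that share, the Dex effects were -0.69 and -0.62 for CDC25B and -0.72 and -0.57 for PLK1. All 4 calls held under that scaling, which moved the median of all genes to -0.21 beside GSK591 and -0.19 beside MS023.

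Promoters of the genes whose values carry these results are printed to show the elements through which this set is known to be controlled. Windows of 300 bases, 250 before and 50 after each start site (RefSeq, GRCh38.p14), were found for 38 of the 45 genes. Capitals mark the CHR (TTTGAA or TTCGAA on either strand) and the CCAAT box (CCAAT on either strand). PLK1 and CDC25B changed with Dex, CENPA and TOP2A with time in MS023, and AURKB after 3 h of GSK591. CDC25B was added after its values were seen; the window shown is the 1 of its 4 that holds a CHR, and the other 3 start sites have none. AURKB, shown from 1 of its 2 windows, holds no CHR in either.
PLK1, chr16:23678639-23678938, plus strand: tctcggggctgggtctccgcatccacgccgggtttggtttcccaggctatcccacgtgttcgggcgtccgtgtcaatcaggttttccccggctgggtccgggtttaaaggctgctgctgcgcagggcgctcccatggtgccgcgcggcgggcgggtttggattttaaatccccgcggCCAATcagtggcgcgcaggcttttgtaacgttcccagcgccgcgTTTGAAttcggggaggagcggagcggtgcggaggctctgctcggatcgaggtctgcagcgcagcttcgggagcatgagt
CDC25B, chr20:3796060-3796359, plus strand: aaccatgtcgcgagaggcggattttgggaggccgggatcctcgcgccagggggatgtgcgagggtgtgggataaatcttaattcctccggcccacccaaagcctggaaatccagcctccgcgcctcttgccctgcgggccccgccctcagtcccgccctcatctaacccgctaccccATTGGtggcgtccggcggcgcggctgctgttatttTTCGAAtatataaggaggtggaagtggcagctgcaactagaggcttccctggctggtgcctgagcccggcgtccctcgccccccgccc
CENPA, chr2:26785806-26786105, plus strand: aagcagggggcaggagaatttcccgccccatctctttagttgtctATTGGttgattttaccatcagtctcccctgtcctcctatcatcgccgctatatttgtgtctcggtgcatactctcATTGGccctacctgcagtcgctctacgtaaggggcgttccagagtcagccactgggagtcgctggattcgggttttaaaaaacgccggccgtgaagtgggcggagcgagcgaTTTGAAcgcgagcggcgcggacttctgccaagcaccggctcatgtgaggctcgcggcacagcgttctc
TOP2A, chr17:40417847-40418146, minus strand: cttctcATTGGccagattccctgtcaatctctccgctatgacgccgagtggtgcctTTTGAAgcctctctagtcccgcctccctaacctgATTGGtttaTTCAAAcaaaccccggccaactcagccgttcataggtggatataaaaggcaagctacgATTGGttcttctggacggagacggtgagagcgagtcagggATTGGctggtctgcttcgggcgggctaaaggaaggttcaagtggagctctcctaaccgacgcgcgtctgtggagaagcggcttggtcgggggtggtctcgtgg
AURKB, chr17:8210176-8210475, minus strand: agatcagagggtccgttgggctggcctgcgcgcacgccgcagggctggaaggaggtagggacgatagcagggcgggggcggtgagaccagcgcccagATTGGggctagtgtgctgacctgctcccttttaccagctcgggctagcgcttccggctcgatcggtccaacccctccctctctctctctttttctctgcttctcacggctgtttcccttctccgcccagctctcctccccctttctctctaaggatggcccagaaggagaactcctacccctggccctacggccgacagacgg
Counted in bases from the start site, the CHR began at -29 in PLK1, -38 in CDC25B and -18 in CENPA, and 1 CCAAT box lay at -73 in both PLK1 and CDC25B. TOP2A held 2 CHR matches and 4 CCAAT boxes in its window, and AURKB 1 CCAAT box, at -153.

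Over the 38 genes with a window, a CHR was found in 31 (81.6%), beside 19.5% of all genes with windows of the same length, where a gene with several windows counts if any of them holds the element. A CCAAT box was found in 32 (84.2%), beside 39.7%, and both in 26 (68.4%), beside 7.85%. Matches of the 2 elements were counted separately even where they shared a base. The glucocorticoid receptor half-site AGAACA, searched on both strands, was found in 4 of the 38 (10.5%), beside 17.5% of all genes. Those 4 were NEK2, CENPF, CCNA2 and CCNB2, none of which was called in any comparison. Of the 8 called genes, 6 had a window: all 6 held a CCAAT box, 5 held a CHR (AURKB did not), and none held AGAACA. These are matches of letters in these windows and say nothing of binding in these cells.

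The third question was the response at 3 h. Against untreated cells, GSK591 gave 3 calls (6.67% of the members, beside 11.0% of all genes) and MS023 gave 1 (2.22%, beside 7.63%), and these comparisons share the untreated libraries. With no untreated cells at 3 h, the inhibitor and the time in culture cannot be told apart. BUB3 was lower with both inhibitors, AURKB lower and PLK1 higher with GSK591. The scaled BUB3 count fell by 27.4% with GSK591 and 26.3% with MS023. The median member change was 0.02 with GSK591 and 0.09 with MS023 (log2), beside -0.01 and -0.01 over all genes.

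BUB3 (ENSG00000154473.17, chromosome 10, 123154277 to 123170467, plus strand, no exon shared with another gene) encodes the adaptor that brings the checkpoint kinases BUB1 and BUBR1 to kinetochores. It stood at 46.6 and 46.3 CPM untreated, 42.3 and 56.6 with GSK591 for 15 min and 40.5 and 41.3 with MS023 for 15 min. With Dex it stood at 44.1 and 40.1 beside GSK591 and 37.4 and 36.9 beside MS023, and after 3 h at 34.2 and 33.3 with GSK591, and at 33.1 and 35.5 with MS023. The 4 libraries taken at 3 h were the lowest, and the GSK591 15 min libraries stood far apart from each other. The fold changes were -0.46 ± 0.11 and -0.44 ± 0.12 (SE, log2) for GSK591 and MS023 against untreated (edgeR adjusted p 0.0048 and 0.011). Each call was lost without either untreated library (GSK591 -0.45 and -0.46, MS023 -0.43 in both). They were also lost without GSK591 3 h replicate 2 (-0.45) and without MS023 3 h replicate 1 (-0.39).

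AURKB (ENSG00000178999.12, chromosome 17, 8204733 to 8210600, minus strand, no exon shared) encodes Aurora B, the kinase of the chromosomal passenger complex that corrects faulty attachments of chromosomes to the spindle. It stood at 79.5 and 75.3 CPM untreated, 71.6 and 65.6 with GSK591, and at 74.7 and 70.3 with MS023 for 15 min, while with Dex it stood at 69.5 and 80.2 beside GSK591 and 74.2 and 68.4 beside MS023. After 3 h it stood at 63.0 and 55.9 with GSK591, and at 58.3 and 70.7 with MS023. The GSK591 3 h libraries lay below both untreated libraries. The log2 fold change was -0.38 ± 0.10 with GSK591 (edgeR adjusted p 0.012) and -0.27 ± 0.10 with MS023 (adjusted p 0.12). The GSK591 call was lost without untreated replicate 1 (-0.34), untreated replicate 2 (-0.41) or GSK591 3 h replicate 2 (-0.31). With library size alone it was -0.25 (adjusted p 0.27), a change of over 1.5 times.

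PLK1, which was lower with Dex, was higher after 3 h of GSK591 by 0.34 ± 0.10 on the log2 scale (edgeR adjusted p 0.022), and with MS023 its value was 0.30 ± 0.10 (adjusted p 0.067). The GSK591 call did not hold in any of the 4 fits without 1 library (0.28 to 0.39) or with DESeq2 (adjusted p 0.075). The checkpoint gene MAD2L1, whose product inhibits CDC20, had values of -0.42 ± 0.19 with GSK591 and -0.47 ± 0.19 with MS023 and was not called (edgeR adjusted p 0.15 and 0.13).

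Comparing 3 h with 15 min of the same inhibitor leaves the untreated libraries out. GSK591 gave 1 call (2.22% of the members, beside 6.41% of all genes), BUB3 at -0.55 ± 0.11 (SE, log2; edgeR adjusted p 0.0017). Without GSK591 15 min replicate 2, the highest BUB3 library, it was -0.33 and was not called (adjusted p 0.23). MS023 gave 3 calls (6.67%, beside 12.0% of all genes): CENPA and TOP2A were higher and BIRC5 was lower at 3 h. The corresponding BUB3 value for MS023 was -0.26 ± 0.12 (adjusted p 0.17).

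CENPA (ENSG00000115163.14, chromosome 2, 26764289 to 26801067, plus strand) encodes the histone H3 variant that marks centromeres. It stood at 29.4 and 37.2 CPM after 15 min and 44.8 and 48.9 after 3 h of MS023, beside 38.0 and 44.2 untreated. It stood at 44.5 and 40.3 after 15 min and 38.5 and 46.7 after 3 h of GSK591, and with Dex at 48.0 and 37.0 beside GSK591 and 41.2 and 38.9 beside MS023. MS023 replicate 1 at 15 min was the lowest of the 14 libraries. The change with time in MS023 was 0.50 ± 0.13 (SE, log2; edgeR adjusted p 0.0058), and it was lost without that library (0.33) and without MS023 3 h replicate 2 (0.46). CENPA shares exon sequence with SLC35F6 on the same strand, which gave 0.14 ± 0.14 in this comparison.

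TOP2A (ENSG00000131747.14, chromosome 17, 40388516 to 40417950, minus strand, no exon shared) encodes topoisomerase II alpha, which untangles sister chromatids. It stood at 50.2 and 50.4 CPM after 15 min and 60.8 and 66.5 after 3 h of MS023, and at 45.6 and 63.3 after 15 min and 62.1 and 55.9 after 3 h of GSK591. Untreated libraries held 49.9 and 51.1 CPM, and those with Dex 53.2 and 56.9 beside GSK591 and 48.0 and 50.2 beside MS023. Both MS023 3 h libraries lay above both MS023 15 min libraries, and the GSK591 groups overlapped. The MS023 change was 0.34 ± 0.11 (SE, log2; edgeR adjusted p 0.044), was called in none of the 4 fits without 1 library (0.29 to 0.40), and was 0.19 with library size alone.

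BIRC5 (ENSG00000089685.14, chromosome 17, 78214186 to 78225636, plus strand, no exon shared) encodes survivin, a subunit of the same passenger complex as Aurora B. It stood at 57.7 and 63.0 CPM after 15 min and 43.9 and 48.1 after 3 h of MS023, and at 50.6 and 50.9 after 15 min and 44.3 and 46.4 after 3 h of GSK591. Untreated libraries held 52.9 and 54.2 CPM, and those with Dex 60.7 and 56.6 beside GSK591 and 59.8 and 52.9 beside MS023. The 4 libraries taken at 3 h were the lowest of the 14. The MS023 change was -0.39 ± 0.10 (SE, log2; edgeR adjusted p 0.008), lost without MS023 15 min replicate 2 (-0.33) or MS023 3 h replicate 1 (-0.33).

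The mitochondrial share of counts was 54.0% and 53.8% in untreated cells, 47.3% and 43.5% after 3 h of GSK591 and 50.5% and 53.2% after 3 h of MS023. Scaled by library size alone, BUB3 was not called with GSK591 or MS023 against untreated (-0.33 and -0.42) or in the GSK591 time comparison (-0.49), nor was CENPA in the MS023 time comparison (0.35). DESeq2 made neither the BUB3 call with MS023 against untreated nor the TOP2A call with time in MS023, and, among the Dex comparisons, not the NCAPD2 call.

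The 2 inhibitors were then compared directly. Between GSK591 and MS023 no member was called at 15 min (1.09% of all genes were; 3 members had an unadjusted edgeR p under 0.05) or at 3 h (0% of all genes; 1319 genes and 1 member, FOXM1, had an unadjusted edgeR p under 0.05, and DESeq2 called 1 gene). At 3 h the 95% interval of the difference lay inside 2-fold for 45 of 45 genes and inside 1.5-fold for 39. The change from 15 min to 3 h was also compared between the inhibitors, a contrast added after the calls were seen, and no member was called (0.561% of all genes were; 1 member had an unadjusted edgeR p under 0.05). For CENPA, GSK591 gave 0.00 ± 0.12 where MS023 gave 0.50 ± 0.13, and the difference was -0.50 ± 0.18 with an interval of -0.86 to -0.14 (log2, edgeR adjusted p 0.25). The differences for BUB3, TOP2A and BIRC5 were -0.30 ± 0.16, -0.22 ± 0.16 and 0.23 ± 0.15, with GSK591 values of 0.12 ± 0.11 for TOP2A and -0.16 ± 0.10 for BIRC5. The 2 time courses share no library: 34 of the 45 genes had the same sign in both and the changes correlated at r = 0.54, beside 0.41 over all genes tested, as a description.

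**Figure D4:**
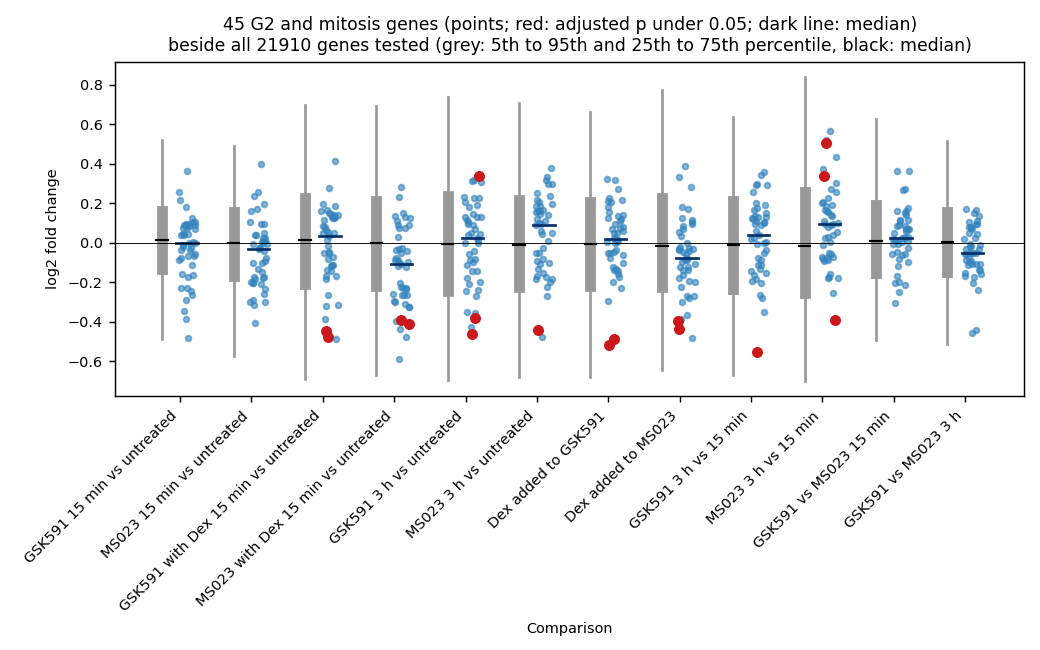
Log2 fold changes of the 45 genes (points, red where the adjusted p was under 0.05, with their median as a dark line) beside the 5th to 95th and 25th to 75th percentiles of all 21910 genes tested (grey) in 12 comparisons. The medians of the 45 genes lie between -0.11 (MS023 with Dex against untreated) and 0.09 (MS023 at 3 h against 15 min).

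CDK1, its partner cyclins CCNB1, CCNB2 and CCNA2, and CKS2 were not called in any comparison, unlike CDC25B and PLK1. Cyclin B1 (CCNB1), the partner that activates CDK1, stood at 25.8 and 23.101 CPM untreated, 19.8 and 21.9 with GSK591, 24.7 and 23.27 with MS023, 25.6 and 20.8 with GSK591 and Dex, 20.4 and 21.4 with MS023 and Dex, 25.9 and 27.7 after 3 h of GSK591 and 27.0 and 26.9 after 3 h of MS023. Its widest change, from 15 min to 3 h of GSK591, was 0.36 ± 0.13 (SE, log2; edgeR adjusted p 0.084). In the same order of groups, CDK1 stood at 8.50 and 9.74, 7.54 and 10.0, 6.92 and 9.16, 12.0 and 8.26, 7.83 and 12.1, 9.07 and 9.77, and 8.51 and 9.14 CPM. No group of CDK1 libraries stood apart from the untreated pair. Cyclin B2 (CCNB2), a second partner of CDK1, stood at 54.3 and 45.1, 47.9 and 51.5, 50.8 and 46.2, 48.7 and 47.4, 42.4 and 42.6, 47.9 and 42.2, and 46.7 and 45.4 CPM in that order. Cyclin A2 (CCNA2), which acts with CDK2 and CDK1 from S phase into mitosis, stood at 17.4 and 21.1, 20.1 and 19.4, 20.5 and 18.5, 20.5 and 15.8, 17.99 and 18.04, 20.2 and 19.4, and 17.1 and 18.1 CPM. For both cyclins, the spread between the untreated libraries was about as wide as that between groups. CKS2, a small subunit that binds the kinase, stood at 7.42 and 9.31, 4.59 and 8.23, 5.84 and 8.11, 7.36 and 8.11, 6.78 and 5.94, 8.02 and 6.39, and 7.31 and 7.76 CPM, with its lowest library in the GSK591 15 min group beside 1 at untreated level. Over the 8 genes of the cyclin and kinase core, the median log2 change on adding Dex was 0.12 beside GSK591 and -0.20 beside MS023, with CDC25B the only call in each.

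Among the other mitotic kinases, AURKA, the Aurora kinase of spindle poles, stood at 21.9 and 21.6, 22.1 and 18.1, 18.4 and 19.7, 19.2 and 21.1, 17.5 and 19.4, 19.3 and 24.3, and 19.4 and 21.2 CPM in the order untreated, GSK591, MS023, GSK591 with Dex, MS023 with Dex, GSK591 3 h and MS023 3 h. NEK2, a kinase that separates centrosomes, had values of -0.48 ± 0.25 with GSK591 and Dex and -0.48 ± 0.24 with MS023 and Dex against untreated (SE, log2; not called, edgeR adjusted p 0.3 and 0.25). In the checkpoint and exit group, BUB1, the kinase that BUB3 carries, stood at 8.28 and 8.10, 8.12 and 9.78, 7.35 and 6.45, 8.35 and 9.64, 6.78 and 6.85, 9.81 and 8.84, and 8.18 and 10.8 CPM in the same order. CDC20, which activates the anaphase-promoting complex, stood at 55.1 and 54.5, 50.4 and 47.9, 51.8 and 50.3, 40.3 and 47.9, 47.3 and 44.0, 46.1 and 46.4, and 46.1 and 51.3 CPM, with both untreated libraries above all others. UBE2C, the ubiquitin-conjugating enzyme of that complex, stood at 35.0 and 30.1, 33.9 and 30.6, 31.1 and 32.3, 28.6 and 28.8, 34.1 and 27.2, 33.7 and 35.8, and 34.1 and 38.1 CPM. The 2 groups with Dex had a median change against untreated of -0.13 (GSK591) and -0.26 (MS023) over the 8 genes of this role, none of them called.

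In the chromosome group, MKI67, the Ki-67 protein that coats mitotic chromosomes and serves as a proliferation marker, stood at 96.5 and 106, 96.3 and 119, 97.5 and 101, 96.8 and 111, 98.5 and 100.3, 121 and 97.0, and 124 and 102 CPM, again in that order. Its libraries of 1 group differed by as much as its groups did. CENPF, a kinetochore protein, stood at 43.3 and 44.2, 42.3 and 49.6, 41.8 and 46.5, 44.3 and 51.4, 47.0 and 47.6, 43.3 and 39.4, and 41.9 and 46.5 CPM. The condensin subunit gene NCAPG, at -0.59 ± 0.25 with MS023 and Dex against untreated (edgeR adjusted p 0.16), and SGO1, at 0.56 ± 0.32 from 15 min to 3 h of MS023 (adjusted p 0.28), had the widest values of the set among the comparisons of groups, and their SE were 0.25 and 0.32. The motor gene KIF11, whose product pushes spindle poles apart, stood at 16.7 and 16.97, 16.0 and 19.4, 19.4 and 16.5, 19.2 and 17.9, 15.4 and 18.8, 18.4 and 15.1, and 15.4 and 19.7 CPM, and none of the 6 kinesin genes was called. None of the 8 genes of spindle assembly and cytokinesis was called either. FOXM1, the activator of this program, stood at 36.1 and 36.2, 38.6 and 39.2, 37.3 and 36.9, 42.3 and 36.9, 39.8 and 37.3, 32.3 and 31.7, and 38.4 and 37.0 CPM. Both GSK591 3 h libraries were the lowest for FOXM1, and its change from 15 min to 3 h of GSK591 was -0.28 ± 0.11 (edgeR adjusted p 0.12).

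Genes around this set in the cell cycle were counted from 5 lists: regulators of the program (26 genes tested), control of mitotic entry and exit (29), kinetochore, cohesin and condensin (41), other spindle and cytokinesis genes (31), and DNA replication and G1/S (45 of 46 tested). None of them held a call at 15 min of either inhibitor alone, where 0.306% (GSK591) and 0.183% (MS023) of all genes were called. Over the 14 comparisons the lists gave 120 calls, which was 4.98% of the tests of list genes, beside 4.76% over all genes tested in the same comparisons. Of these calls, 33 held in every fit that left out 1 library. When Dex was added to GSK591, 4.65% of the genes in all 5 lists were called, beside 3.70% of all genes. When it was added to MS023, 9.30% were, beside 8.97%. These pooled shares lay close to the background, while single lists lay above or below it. With Dex added to GSK591, 1 of 26 regulators rose (CDKN1A) and 1 fell (LIN37), 1 of 29 entry and exit genes rose (WEE1), and 1 of 41 kinetochore genes rose (CENPH, 0.86 on the log2 scale) and 2 fell (MAD1L1, -0.62, and CENPT, -0.57). The beta-tubulin gene TUBB4B fell among 31 spindle genes (-0.89), and GINS4 rose among 45 replication genes (0.46). By list, 7.69% (regulators), 3.45% (entry and exit), 7.32% (kinetochore), 3.23% (spindle) and 2.22% (replication) were called, beside 3.70% of all genes. When Dex was added to MS023, 3 regulators rose (NFYB, CDKN1A and TFDP1) and 2 fell (LIN37 and CDKN1B), and 5 entry and exit genes rose (WEE1, CDC25A, ARPP19, CDC16 and UBE2S). In that comparison PDS5A (0.71) and KNL1 rose and DSN1 fell in the kinetochore list, KPNA2 and PSRC1 fell in the spindle list, and the histone mRNA binding gene SLBP rose (0.99) in the replication list. In the same order of lists, 19.2%, 17.2%, 7.32%, 6.45% and 2.22% were called, beside 8.97% of all genes. Against untreated cells, 4 of 26 regulators were called with GSK591 and Dex and 6 of 26 with MS023 and Dex. Over all genes the shares were 5.85% and 7.66%, and over all 5 lists 5.81% and 8.14%. Called regulators included NFYB, which rose, and LIN37 and CDKN1B, which fell, with GSK591 and Dex. With MS023 and Dex, they included NFYB, CDKN1A and MYBL2, which rose, and LIN37 and CDKN1B, which fell. Of the entry and exit list 6.90% was called in both comparisons, and of the spindle list 6.45%. Of the kinetochore list 2.44% and 4.88% was called, and of the replication list 2.22% and 4.44%.

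At 3 h against untreated, 10.5% of the genes in the lists were called with GSK591 (11.0% of all genes) and 9.30% with MS023 (7.63% of all genes). No regulator fell. With GSK591, 3 regulators rose (NFYB, TFDP1 and LIN37), and with MS023 4 rose (NFYB, TFDP1, LIN37 and CDKN1A). These were 11.5% and 15.4% of the regulators, beside 7.25% and 5.40% of all genes called higher. In the entry and exit list, WEE1, PPP1CA and UBE2S rose with both inhibitors and CCNF, which encodes cyclin F, with MS023. That was 10.3% and 13.8% of the list, beside the same 7.25% and 5.40% of all genes. In the kinetochore list, 3 of 41 genes rose with GSK591 (PDS5A, a cohesin cofactor gene, 0.67, DSN1, 0.53, and CENPN, 0.38, log2), while with MS023 PDS5A rose (0.67) and the cohesin gene SMC1A fell (-0.40). Calls made up 7.32% and 4.88% of this list, beside 11.0% and 7.63% of all genes. The replication list was the one with most falls: with GSK591, 6 of 45 fell (GINS2, MCM5, POLE, UNG, TK1 and ORC6) and 2 rose (SLBP and CCNE1), and with MS023 5 fell (POLE, GINS2, UNG, GINS4 and MCM5) and SLBP rose. The falls were 13.3% and 11.1% of that list, beside 3.79% and 2.23% of all genes tested called lower. Its rises were 4.44% and 2.22%, beside 7.25% and 5.40% of all genes called higher. These genes encode the replicative helicase and its loading factors, a replicative polymerase, and enzymes of nucleotide supply and base repair. SLBP rose by 1.40 ± 0.17 with GSK591 and 1.32 ± 0.18 with MS023 (SE, log2; edgeR adjusted p 1.7e-07 and 8.7e-07), calls held in every fit without 1 library. GINS2 stood at -0.56 ± 0.14 with GSK591 (adjusted p 0.004) and -0.52 ± 0.14 with MS023 (adjusted p 0.012), and the MCM5 call with MS023 held in none of the 4 fits without 1 library (-0.39 to -0.35). From 15 min to 3 h, the falls in the replication list were 2 of 45 with GSK591 (POLE and GINS2) and 8 of 45 with MS023. As shares they were 4.44% and 17.8%, beside 2.77% and 4.40% of all genes tested called lower. The replication list had a median log2 change of -0.18 and -0.17 at 3 h of GSK591 and MS023, where the G2 and mitosis genes had 0.02 and 0.09.

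WEE1 (ENSG00000166483.10, chromosome 11, 9573681 to 9593457, plus strand), the kinase that opposes CDC25B at CDK1, rose when Dex was added to either inhibitor, and at 3 h of each. It stood at 37.1 and 43.2 CPM untreated, 43.8 and 39.0 with GSK591, 31.6 and 36.5 with MS023, 53.6 and 53.4 with GSK591 and Dex, and 61.9 and 68.2 with MS023 and Dex. After 3 h it stood at 63.1 and 62.2 with GSK591, and at 63.1 and 66.2 with MS023. All 8 libraries with Dex or at 3 h lay above the other 6. Adding Dex to MS023 gave 0.94 ± 0.11 (SE, log2; edgeR adjusted p 4e-08) and the call held in all 4 fits without 1 library (0.83 to 1.05). Adding Dex to GSK591 gave 0.37 ± 0.11 (adjusted p 0.047), and that call was lost in all 4 (0.28 to 0.46), with DESeq2, and with library size alone (0.17). At 3 h against untreated WEE1 rose by 0.64 ± 0.10 with GSK591 and 0.69 ± 0.11 with MS023 (edgeR adjusted p 2.5e-05 and 1.1e-05). CDC25A, the related phosphatase that acts earlier in the cycle, rose with Dex beside MS023 by 0.47 ± 0.14 (edgeR adjusted p 0.021), a call that DESeq2 did not make.

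Genes for subunits of the factors known to bind these promoters were called too. NFYB, a subunit of NF-Y, stood at 10.5 and 10.9 CPM untreated, 28.6 and 27.6 after 3 h of GSK591 and 20.4 and 30.8 after 3 h of MS023, with no overlap. It rose by 1.39 ± 0.16 and 1.23 ± 0.17 (SE, log2; edgeR adjusted p 5.7e-08 and 1.1e-06), and both calls held in every fit without 1 library (1.36 to 1.42 and 0.94 to 1.52). TFDP1, the dimer partner of E2F factors, stood at 8.17 and 9.63 CPM untreated and rose to 17.2 and 20.3 after 3 h of GSK591, by 1.07 ± 0.18 (edgeR adjusted p 2.8e-05). LIN37, a MuvB subunit, stood at 34.0 and 36.5 CPM untreated, 22.9 and 20.4 with GSK591 and Dex, 20.6 and 23.4 with MS023 and Dex, 52.5 and 50.9 after 3 h of GSK591 and 50.3 and 45.7 after 3 h of MS023. LIN37 was lowest with Dex and highest at 3 h, as were CDC25B, PLK1 and also CDKN1B, the p27 inhibitor gene, which held 17.6 to 23.6 CPM in the 4 libraries with Dex, 32.93 to 38.4 at 3 h and 26.3 to 32.87 in the others. Adding Dex gave -0.61 ± 0.13 beside GSK591 and -0.72 ± 0.12 beside MS023 for LIN37 (edgeR adjusted p 0.0021 and 4.2e-05), and its exons overlap those of other genes. The GSK591 call of LIN37 was lost without replicate 2 of GSK591 with Dex (-0.52).

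CDKN1A, the p21 inhibitor of cyclin-dependent kinases, rose when Dex was added, by 0.66 ± 0.16 beside GSK591 and 0.69 ± 0.15 beside MS023 (SE, log2; edgeR adjusted p 0.0088 and 0.0015). Its libraries held 16.2 and 18.6 CPM with GSK591 and 32.8 and 22.0 with Dex beside it, 21.1 and 15.9 with MS023 and 28.7 and 31.9 with Dex beside it. The call beside GSK591 was lost without replicate 1 of GSK591 with Dex (0.34) and without GSK591 replicate 1 (0.57), the one beside MS023 without MS023 replicate 2 (0.53), and both with library size alone. MYBL2 stood at 11.7 and 12.2, 13.8 and 16.8, 14.2 and 15.3, 14.6 and 14.8, 17.1 and 16.0, 13.2 and 12.9, and 13.7 and 11.8 CPM in the order of groups given above and E2F1 at 22.6 and 24.6, 28.8 and 22.9, 26.5 and 32.9, 29.1 and 27.5, 30.7 and 29.3, 21.0 and 23.8, and 23.0 and 31.7 CPM. MYBL2 was called for MS023 with Dex against untreated (0.47 ± 0.15, edgeR adjusted p 0.049), a call lost in all 4 fits without 1 library (0.42 to 0.51), and E2F1 in no comparison. LIN54, the subunit that contacts the CHR, stood at 7.53 and 6.57, 7.30 and 5.01, 4.43 and 4.95, 5.52 and 5.82, 5.37 and 5.82, 6.54 and 5.46, and 5.67 and 5.96 CPM and was called in none.

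**Figure D5:**
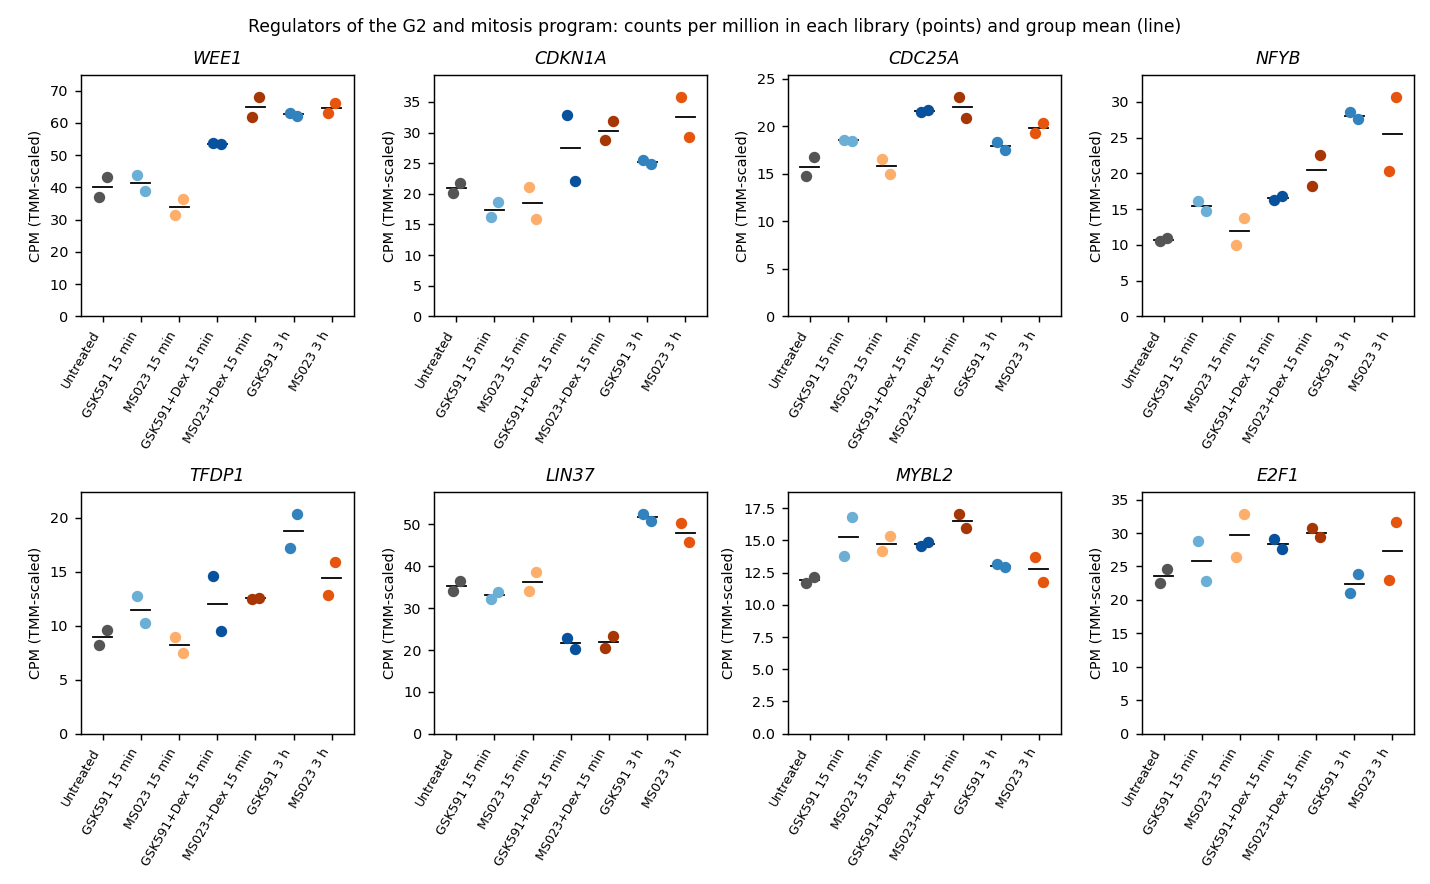
CPM in each library (points) and group mean (line) of 8 genes that regulate the G2 and mitosis program. WEE1 is higher in the 8 libraries with Dex or at 3 h, NFYB reaches 30.8 at 3 h, and LIN37 is lowest with Dex and highest at 3 h.

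The authors' deposited tables hold their own DESeq2 comparison of each treatment with the control, and in none of the 6 was a member called at an adjusted p under 0.05. The number of the 45 members given an adjusted p there ranged from 29 (GSK591 at 3 h) to 45 (either inhibitor for 15 min). In the authors' deposited table for GSK591 with Dex, CDC25B had -0.41 ± 0.13 (SE, log2; adjusted p 0.076) and PLK1 -0.51 ± 0.18 (adjusted p 0.15). In the authors' deposited table for GSK591 at 3 h, BUB3 had -0.45 ± 0.19 (adjusted p 0.17). For these values of CDC25B, PLK1 and BUB3 the signs were those of the edgeR fit, and the standard errors were larger. Not every member kept its sign: with GSK591 for 15 min, CDC25C had -0.09 among the authors' values and 0.09 in the edgeR fit (log2, not called in either). Over all genes, these tables held between 0 and 535 genes with an adjusted p under 0.05.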

How the data were processed

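PRO-seq libraries of A549 cells, 2 in each of 7 groups, were analysed from the deposited table of gene counts. The authors made these counts with featureCounts 2.0.1 (hg38) per the submitters' processing notes; which feature was counted, whether strand was used, the aligner and the treatment of duplicate reads are not given in the sources used here. The 6 deposited DESeq2 tables hold, per the file headers, log2 fold changes with standard errors, p-values and the Wald score. The log2 values and p-values of the deposited tables are quoted as the authors' own, and the deposited score was not used. Gene symbols missing from the count table, 22731 of them, were filled from GENCODE 29, which also gave positions and exon lengths. Over 14351 protein-coding genes, untreated log2 CPM rose with log2 exon length (slope 0.92) and fell with log2 gene span (-0.38) in a joint fit. Levels were therefore divided by exon length, and gene span was not adjusted for.

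Counts were tested with edgeR 4.0.16 (R 4.3.3, limma 3.58.1) by its quasi-likelihood test, after filterByExpr (21910 of 58780 genes) and TMM scaling, with 1 coefficient per group, 7 residual degrees of freedom and a common biological coefficient of variation of 0.0728. P-values were adjusted by Benjamini-Hochberg over all genes tested within each comparison, with a threshold of 0.05. CPM use TMM-scaled library sizes. TMM reads only relative levels and no spike-in was used, so a change shared by most genes would not show. Total counts of 5768312 to 9606938 per library limit precision for the weakest genes, which had as few as 18 counts. Replicate numbers did not pair libraries (correlations of deviations between -0.07 and 0.11), so no block was fitted in the tests reported. The test was checked on simulated counts.

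The G2 and mitosis genes and the gene lists were chosen with earlier results of these data known. Named were all called members, at most 25 per comparison, 15 central members always, up to 6 called genes per list and comparison, and CDKN1A, MYBL2, E2F1, WEE1 and LIN54; 1 gene that this rule would name is not reported here. Other uncalled genes given with values were chosen after their values were seen. Alternatives were DESeq2 1.42.0, its size factors in edgeR, library size alone, no count filter, a replicate block and leaving out each library. The comparison of time effects and the list counts under alternatives were added after the data were seen.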

Additional observations from a re-analysis of the deposited data

Results flagged for a closer look

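No gene of the G2 and mitosis set was called in the edgeR tests of the difference between the inhibitors' Dex or time effects, and 2 genes of the surrounding lists were. For TUBB4B, a beta-tubulin gene, the Dex effect was -0.89 beside GSK591 and -0.07 beside MS023 (log2), and the difference was -0.83 ± 0.15 (SE; edgeR adjusted p 0.002). It was not called without MS023 15 min replicate 1 (-0.74) or without MS023 and Dex replicate 2 (-0.68), and its exons overlap those of FAM166A. Its libraries held 75.2 and 74.3 CPM with GSK591, 40.2 and 40.4 with GSK591 and Dex, 54.8 and 61.4 with MS023 and 49.8 and 60.9 with MS023 and Dex.

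For UBE2S, which encodes the enzyme that lengthens ubiquitin chains on targets of the anaphase-promoting complex, the change from 15 min to 3 h was 0.22 with GSK591 and 0.77 with MS023. The difference was -0.55 ± 0.14 (SE, log2; edgeR adjusted p 0.044), in a comparison added after the data were seen. Its libraries held 113 and 105 CPM at 15 min and 128 and 126 at 3 h of GSK591, and 73.6 and 88.7 at 15 min and 139 and 136 at 3 h of MS023. The difference was not called with library size alone (-0.33) and was called in 1 of 8 fits that left out a library (-0.69 to -0.42). Between the inhibitors at 15 min, UBE2S was 0.44 ± 0.10 higher with GSK591 (edgeR adjusted p 0.013).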

How the results depend on the processing

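The 16 calls kept their direction under every alternative run. With DESeq2, the number of genes of the set called was 1 for MS023 with Dex against untreated, 0 for MS023 at 3 h against untreated and 1 for Dex added to MS023. With library size alone it was 0 for MS023 with Dex against untreated, 1 for GSK591 (PLK1, higher) and 0 for MS023 at 3 h against untreated, and 0 for GSK591 and 1 for MS023 (BIRC5, lower) at 3 h against 15 min. That scaling moved the median of all genes by over 0.1 in 8 comparisons, the most by -0.21 (Dex added to GSK591), where 98 genes were called higher and 1374 lower, against 313 and 498 with TMM; the cause was not tested. The replicate block changed 1 count, that of MS023 at 3 h against untreated, to 2.

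Without 1 library the counts ranged from 1 to 2 for GSK591 with Dex against untreated, 0 to 1 for MS023 with Dex, 0 to 3 for GSK591 at 3 h and 0 to 2 for MS023 at 3 h. They ranged from 0 to 2 for Dex added to GSK591, 1 to 2 for Dex added to MS023 and 0 to 1 for GSK591 at 3 h against 15 min, and were 1 in each case for MS023. The counts take in any gene of the set, so a gene counted there need not be among the calls reported above. For GSK591 with Dex against untreated, neither CDC25B nor PLK1 was called without replicate 2 of that group. Fits without 1 library leave a group with 1 library, assumed to vary as the other groups do. The uncalled values that changed sign were, for 3 h against 15 min of GSK591, CENPA (-0.14 to 0.14, below 0 at -0.07 without GSK591 15 min replicate 2 and lowest without GSK591 3 h replicate 2) and TOP2A (-0.10, without GSK591 15 min replicate 1, to 0.37). The CDC25B difference between Dex effects ranged from -0.14 to 0.019 (without GSK591 and Dex replicate 2), and the TOP2A difference between time effects from -0.43 to 0.036 (without GSK591 15 min replicate 2).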
